A study of Caenorhabditis elegans with 4 samples.

Results

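The chromosome V centre, positions 7000001 to 14000000, held 1413 of the 15765 COH-1 peaks that the authors deposited for the series as a whole (8.96%). Its members were all peaks of that list, called the series list here, that lie on V and have their midpoint between those limits. The choice used position alone, so width, score, spacing and overlap with the replicate lists played no part in it. The outermost members were peaks at 6999950 to 7000503 and 13999616 to 13999877, and the nearest peaks left out were at 6999344 to 6999510 and 14002028 to 14002194. Coordinates are on V in WormBase WS220, the build named in the file headers.

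COH-1 is a kleisin of *Caenorhabditis elegans*. Kleisins bridge the head domains of a pair of SMC proteins, which completes the ring-shaped cohesin complex. Cohesin joins sister chromatids and extrudes loops of chromatin. In this worm the autosomes are organised into a gene-rich centre with little recombination and arms that are richer in repeats and recombine more, and V is the longest autosome.

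COH-1 was mapped by ChIP-seq, in which the DNA bound by a protein is recovered with an antibody and then sequenced. There were 2 ChIP samples, replicates 1 and 2, and 2 input DNA samples, all from hermaphrodites of the strain fem-2(b245), which carries a mutation in a gene needed for male development and sperm, at 20 °C. All 4 samples therefore share the mutation and no wild type is among them. The labels describe young adults that contain a germline, whereas the growth protocol has gravid worms as the harvest. The material was whole worms, so COH-1 in different cell types is summed. The antibody was a rabbit polyclonal serum. Worms were crosslinked for 20 minutes with EGS, which joins proteins, and for 10 minutes with EGS plus formaldehyde. The name of the deposited replicate 2 list carries another gene name, csr1, that no label explains, so values are given for each replicate on its own.

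Each list gives a start, an end and a score for each peak, the score is the authors' and its scale is not stated, so it only ranks peaks inside its own list. The lists hold no read counts, so depth is unknown, and no values of the input samples were used here. The replicate lists name MACS as caller and the series list MACS v2, so numbers of peaks are not amounts of binding that can be set against each other between lists. Nothing says that the replicates were separate cultures, and the reads behind the series list may be those of the replicates.

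COH-1 peaks lay throughout the V centre, with no 500 kb window empty in any list. The series list gave 201.9 peaks per Mb and 924 kb inside peaks, 13.2% of the 7 Mb. Replicate 1 had 227 peaks there (32.4 per Mb, 753 kb, 10.8% of bases) and replicate 2 had 314 (44.9 per Mb, 1082 kb, 15.5% of bases), a mean of 270.5 ± 61.5 peaks (SD, n = 2). With depth unknown and the csr1 name unexplained, this SD cannot be read as the spread between like replicates. Of all bases of the centre, 7.09% were inside peaks of all 3 lists, 19.2% in at least 1 list and 80.8% in none. The rest of V, 13.9 Mb, held 1132 series peaks, or 81.3 per Mb.

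Peaks were fewest at the left limit of the centre and reached their highest number near the right limit. The series list held 43 peaks in 7000001 to 7500000 and 61 in 7500001 to 8000000, the sparsest and second sparsest of the 14 windows of 500 kb. The same windows were the sparsest in both replicate lists, with 3 and 8 peaks in replicate 1 and 10 and 14 in replicate 2. The third sparsest series window was 12500001 to 13000000, with 81 peaks. It ranked 12 of 14 in all 3 lists.

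The densest window was 13000001 to 13500000, again in all 3 lists, with 151 series peaks, 30 replicate 1 peaks and 33 replicate 2 peaks. Next in the series list came 10500001 to 11000000 with 142 peaks and 10000001 to 10500000 with 138. These had ranks 2 and 3 in replicate 1 too, with 24 and 21 peaks. Replicate 2 placed them lower, with 25 and 26 peaks, and had its second highest number, 30, in 11000001 to 11500000. That window held only 86 series peaks and 14 replicate 1 peaks, and its replicate 2 peaks had the lowest median score of the 14 windows, 166.

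**Figure D1:**
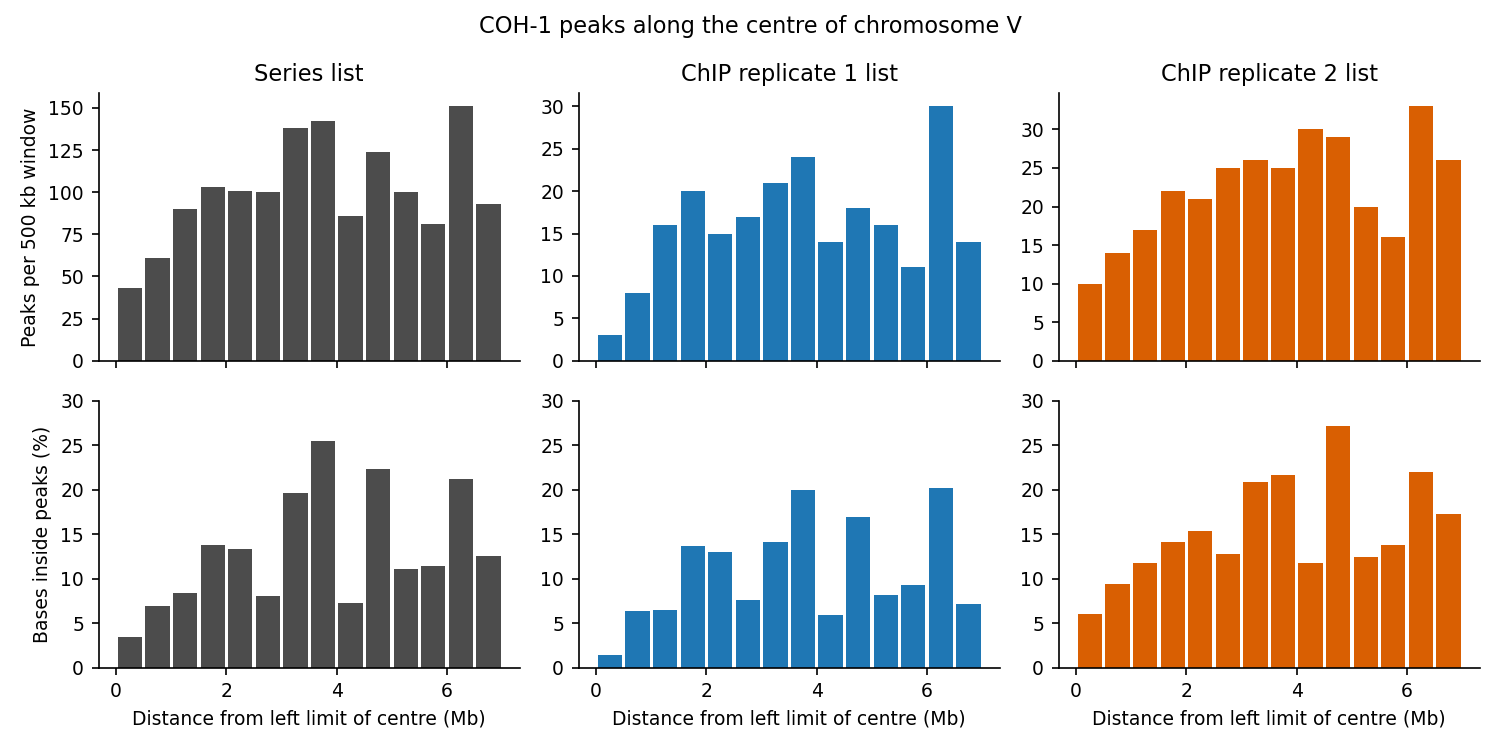
Peaks per 500 kb window (top) and percentage of bases inside peaks (bottom) against distance from the left limit of the V centre in Mb, for the series list and each replicate list, 1 bar per window. The first window is the lowest in all 6 panels, at 43, 3 and 10 peaks, and the window from 6 to 6.5 Mb has the most peaks in each list.

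Counting bases in place of peaks changed the order of the windows. In the series list 10500001 to 11000000 had the highest share of bases inside peaks (25.4%), followed by 11500001 to 12000000 (22.3%) and 13000001 to 13500000 (21.2%). In replicate 1 the last of these led at 20.2%, and in replicate 2 the window 11500001 to 12000000 led at 27.1%. The lowest share was in the first window in every list, namely 3.48% (series list), 1.47% (replicate 1) and 5.99% (replicate 2). Across the 14 windows, the shares of bases in replicate 1 and replicate 2 peaks were related by a Spearman's rho of 0.91 and a Pearson's r of 0.87, and the numbers of peaks by 0.63 and 0.78. These are descriptions over windows of 1 chromosome, which share their libraries, and carry no test.

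The windows with the highest median scores differed between lists, and a link of median score to number of peaks was not tested. The median series score of a window ran from 4.41 in 9000001 to 9500000 to 6.13 in 13500001 to 14000000, and was 5.17 in the densest window. In replicate 2 the sparsest window, at the left limit, had the highest median score, 1242, over its 10 peaks. In replicate 1 the highest median scores were in 10000001 to 10500000 (299) and in the densest window (232). The third highest, 208, was in 7500001 to 8000000, a sparse window with 8 replicate 1 peaks. The left 3.5 Mb held 636 series peaks and the right 3.5 Mb 777, and the 21 members at least 5 kb wide were split into 6 and 15 in the same way.

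The V centre was set against the middle parts of I, II, III and IV, each chromosome being divided into 3 equal parts, with each chromosome as 1 unit. Peaks were somewhat sparser on V than the mean of the other 4, in every list, but by about the spread between chromosomes. In the series list V had 201.9 peaks per Mb against 221 ± 19.7 (SD, n = 4), with I at 226, II at 237, III at 228 and IV at 192. The ratio was 0.914 (exact permutation test over 5 chromosomes, two-sided p = 0.6). Replicate 1 had 32.4 on V against 35.1 ± 2.09, and replicate 2 had 44.9 against 48.1 ± 4.44 (exact p = 0.6 for both). Such a test cannot go below 0.2, so no difference between the centres could have passed the 0.05 threshold.

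**Figure D2:**
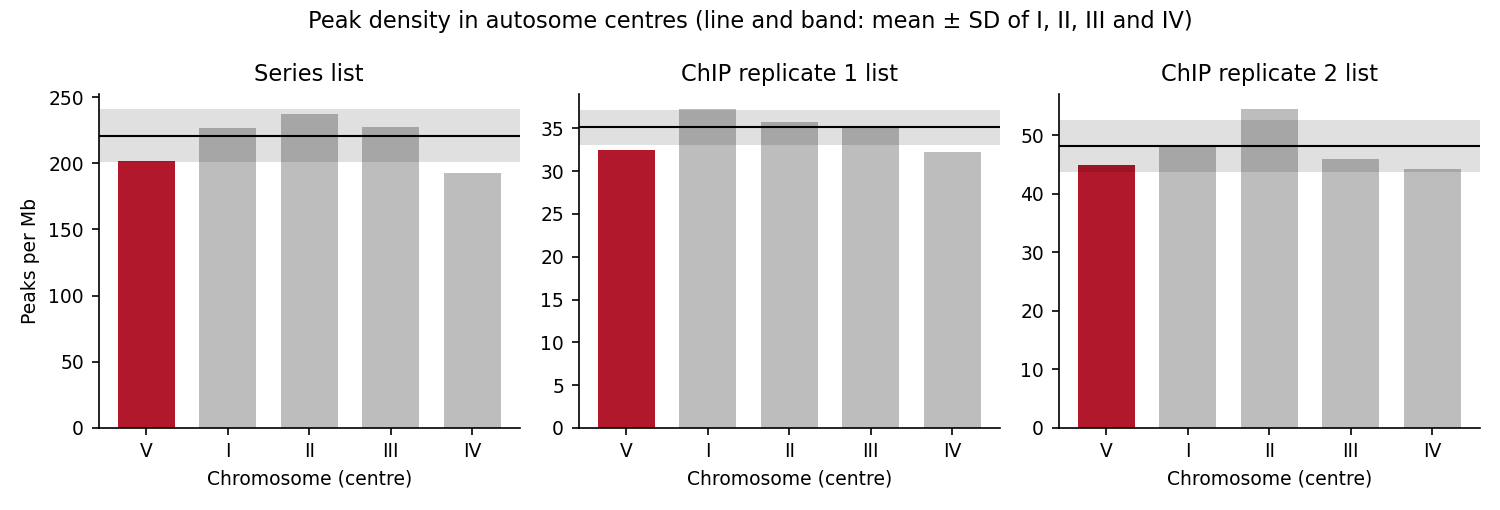
Peaks per Mb in the V centre (red) and in the middle parts of I, II, III and IV (grey) for each list. The line and band are the mean and SD of the 4 grey bars, and V ranks 4 of 5 in each panel, above IV.

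In coverage V ranked 4 of 5 again, in every list. Series peaks covered 13.2% of the V centre against 14.7 ± 2.57% of the other centres (exact p = 0.8). Replicate 1 covered 10.8% of V against 12.3 ± 1.75%, and replicate 2 15.5% of V against 16.8 ± 2.86%, with IV alone lower than V each time. Windows of 500 kb ranged from 43 to 151 series peaks on V, from 49 to 228 on I, from 81 to 160 on II, from 53 to 175 on III and from 62 to 145 on IV. The coefficient of variation between windows was 29.9% on V, inside the range of 22.6% to 47.2% over the other centres.

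Most members were narrow. The median width was 323 bp, with quartiles of 205 and 608 bp and a range from 146 to 24142 bp, and 973 of the 1413 (68.9%) were under 500 bp. These narrow peaks made up 28.1% of the peak bases, whereas the 21 peaks of 5 kb or more, 1.49% of the members, made up 20.5%. Over the whole series list 1.36% of peaks were that wide. The median width on V differed little from that of the other centres, 324 ± 10.0 bp. Replicate peaks were wider, with a median of 2183 bp in replicate 1 and 1904 bp in replicate 2, and none was under 500 bp.

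Peaks of 5 kb or more were 14.5% of the V centre peaks of replicate 1 (33 of 227) and 15.0% of those of replicate 2 (47 of 314). These shares are near the 15.7% and 14.6% over the whole lists. Replicate 1 had 4.71 such peaks per Mb on V, the lowest of the 5 centres, against 6.95 ± 1.89 on the others (exact p = 0.4). Replicate 2 had 6.71 per Mb on V against 8.39 ± 1.89 (exact p = 0.6).

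Series scores in the V centre ran from 1.38 to 79.4, with a median of 5.18 and quartiles of 3.64 and 8.20. This median was the lowest of the 5 centres, against 5.42 ± 0.09 in the others (exact p = 0.2, the smallest possible). Replicate 2 went the other way, its median score of 415 on V being the highest of the 5, against 366 ± 35.0 (exact p = 0.4). Replicate 1 had 151 on V against 164 ± 16.8 (exact p = 0.6). Wider peaks scored higher within each list, with Spearman's rho of 0.72 over the 1413 series peaks, 0.87 in replicate 1 and 0.90 in replicate 2.

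**Figure D3:**
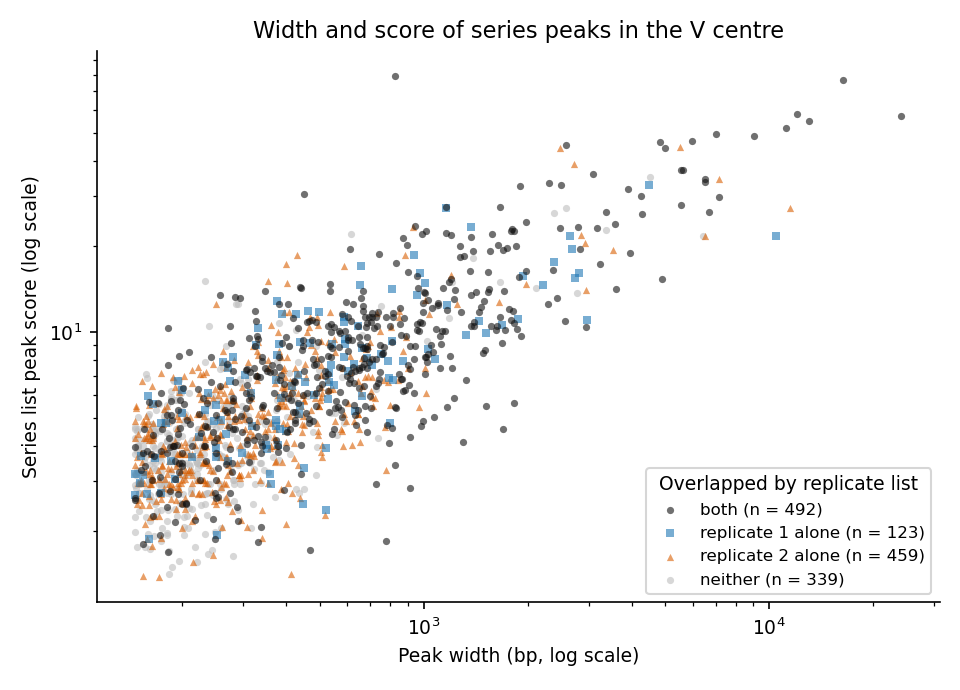
Score against width in bp of the 1413 series peaks of the V centre, both on log scales, with 1 point per peak and colour for the replicate lists that overlap it. Score climbs with width, and 1 peak under 1 kb stands at the top with a score of 79.4.

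Members came in runs. The median distance between neighbouring series peaks was 396 bp, and 998 of the 1412 distances (70.7%) were at most 1 kb. No distance was under 43 bp, here or in the other centres. The median distance was 393 ± 25.7 bp in the other centres, and 71.8 ± 0.919% of their distances were at most 1 kb (exact p = 0.6 for the share). Replicate peaks lay further apart, at a median of 3913 bp in replicate 1 and 2825 bp in replicate 2. The replicate 2 value was the highest of the 5 centres, against 2240 ± 385 bp (exact p = 0.2, the smallest possible), and in replicate 1 V was the third of the 5.

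Joining series peaks at most 1 kb apart gave 415 groups in the V centre, of which 208 (50.1%) were single peaks. The other 4 centres had between 46.0% and 47.4% single. Another 35 groups had 10 or more peaks and together held 526, or 37.2% of the peaks in groups whose midpoint was in the centre. In the other 4 centres this share ran from 34.0% (IV) to 49.4% (I), a range that includes V.

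The largest group had 34 peaks over 35033 bp, at 10849720 to 10884752. No peak in it was wider than 3376 bp or scored above 26.3. The lists differed inside it. Replicate 1 covered 74.7% of the group with 6 peaks, and replicate 2 covered 45.7% with 4 peaks, 2 of which scored 3100 and lay in its right part. A replicate 1 peak of 5779 bp in the left part, at 10861345 to 10867123 with score 897, ended 100 bp short of the nearest replicate 2 peak.

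The next group, 28 peaks at 10026469 to 10051573, differed more, with 85.9% covered in replicate 1 and 16.3% in replicate 2. A further 28 peaks at 12458476 to 12481790 were covered to 27.1% in replicate 1 and 37.5% in replicate 2, and 11 of them were in neither. The group of 23 at 12528029 to 12546629 was covered well in both, at 77.2% and 93.6%, although its highest series score was only 19.6. The fifth, 19 peaks at 13367581 to 13400112, was covered to 95.7% in replicate 1 and 26.5% in replicate 2. Of these 5 groups, 3 thus had more bases in replicate 1 peaks, although replicate 2 covered more of the centre as a whole.

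The 5 longest stretches without series peaks lay mostly on the left. The longest, 231 kb, ran from 7198708 to 7429790, and the next was 177 kb, 7548963 to 7725937. They were followed by 128 kb at 8462956 to 8590518, 106 kb at 7442066 to 7548463 and 97.4 kb at 12191224 to 12288589. No replicate 1 peak touched any of the 5. Replicate 2 peaks reached into the first 3 by 0.593, 0.181 and 0.386 kb in all. In total 32 distances exceeded 50 kb, adding up to 2597 kb of the 7 Mb, and these lay on both sides of the middle. Such distances added up to 1801 kb of 5.02 Mb in the centre of I and 744 kb of 5.09 Mb in that of II. They took 1301 kb of 4.59 Mb in the centre of III and 2284 kb of 5.83 Mb in that of IV.

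Of the 1413 members, 492 were overlapped by a peak of both replicates by at least 1 bp (34.8%, exact 95% binomial interval 32.3 to 37.4), against 36.2% over the whole series list. A replicate 1 peak overlapped 615 (43.5%, against 42.6% over the list) and a replicate 2 peak 951 (67.3%, against 65.7%). Replicate 1 alone overlapped 123 (8.70%), replicate 2 alone 459 (32.5%) and neither 339 (24.0%, interval 21.8 to 26.3). Over the whole list neither overlapped 27.8%. In the other 4 centres both replicates overlapped 39.1 ± 2.26% and neither 24.8 ± 2.50%, so V had the lowest share in both (exact p = 0.4), and a share in neither close to their mean (exact p = 1). Outside the centre of V, both overlapped 29.7% and neither 34.1%. The intervals cover counting error only and treat neighbouring peaks as independent, which they are not.

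Members found in both replicates were wider and stronger. Their median width was 581 bp and median score 7.62, against 212 bp and 3.80 for members in neither. Over the whole series list the same medians were 602 bp and 8.85 in both, and 214 bp and 4 in neither. The 492 made up 55.8% of the peak bases of the members, against 58.7% for such peaks over the whole series list. Wide peaks overlap others more easily, so no test was made of this.

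By score, the share in both replicates was 14.1%, 22.9%, 38.8% and 63.5% in 4 equal parts of the members, from the lowest scores to the highest. The share in neither was 41.8%, 32.9%, 14.2% and 7.08%. By width, 22.2% of members under 500 bp were in both, 57.4% of those from 500 bp to under 1 kb, 70.5% from 1 kb to under 5 kb and 71.4% (15 of 21) of those of 5 kb or more. These shares, and the counts below among the strongest and widest members, were worked out for the V centre alone. They therefore do not mark it off from the rest of the series list.

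**Figure D4:**
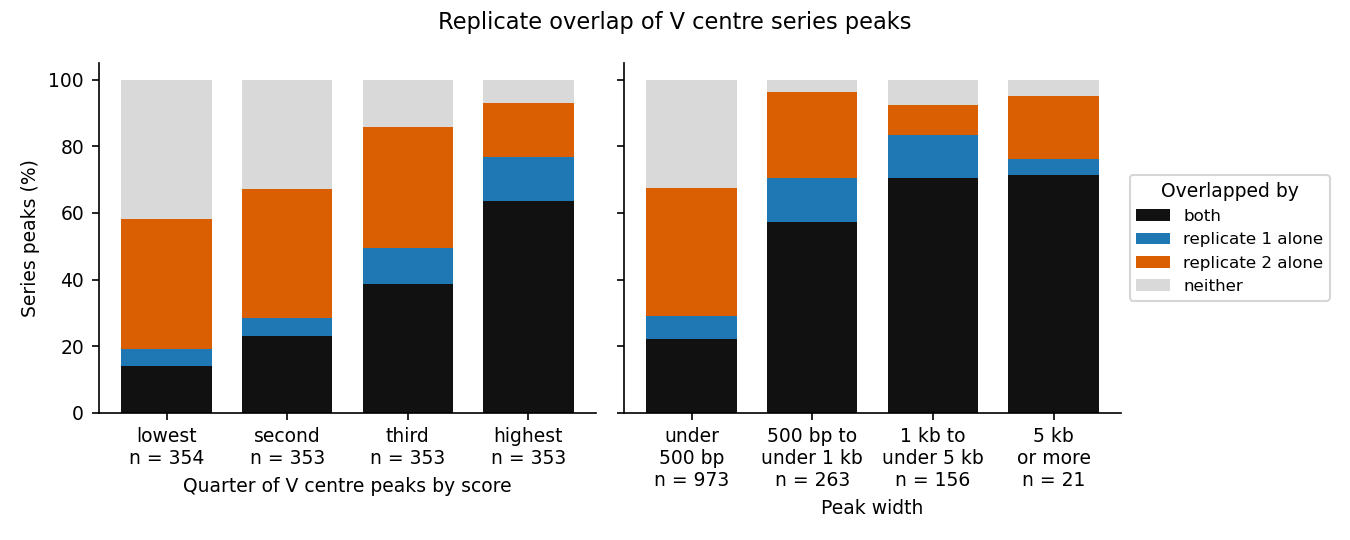
Percentage of V centre series peaks overlapped by both replicate lists, 1 of them or neither, by score in 4 equal parts (left) and by width (right). The share in both runs from 14.1% in the part with the lowest scores to 63.5% in the highest.

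Seen from the replicate lists, replicate 2 found 196 of the 227 replicate 1 peaks of the V centre (86.3%, interval 81.2 to 90.5, against 87.1% over the whole list). Replicate 1 found 164 of the 314 replicate 2 peaks (52.2%, interval 46.5 to 57.9, against 51.2% over the whole list). The other centres gave 86.4% and 52.8%. In bases, 609 kb were shared, which is 80.9% of the replicate 1 bases and 56.3% of the replicate 2 bases.

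In replicate 2 of the V centre, recovery climbed steeply with score, and in replicate 1 it did not. Replicate 1 found 16 of 79 replicate 2 peaks (20.3%) in the lowest of 4 parts by score and 74 of 78 (94.9%) in the highest. The 4 parts of the replicate 1 list were recovered to 84.2%, 87.7%, 87.7% and 85.7% from low to high. Of the replicate 1 peaks of 5 kb or more, 25 of 33 (75.8%) had a replicate 2 partner, whereas 43 of 47 replicate 2 peaks of that width (91.5%) had a replicate 1 partner. These shares were worked out for the V centre alone, so they do not set it apart from other centres. Median scores of replicate 1 peaks with and without a partner were 155 and 121 in the V centre. They were 170 and 116 in the other centres, and 164 and 90.4 over the whole list. For replicate 2 the medians were 1310 and 150, 1192 and 149, and 1075 and 145 in the same order. Over the 196 paired replicate 1 peaks, the score and that of the strongest partner went together with Spearman's rho = 0.56. The score of 3100 was shared by 29 of the 314 replicate 2 peaks of the centre, so these have no order among themselves. In the other centres 103 of 987 replicate 2 peaks had it, and over the whole list 373 of 3714. No replicate 1 peak of the V centre had this score, and 7 of 2587 did over the whole replicate 1 list.

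Every replicate 1 peak of the V centre was overlapped by a series peak, against 99.8% over the whole replicate 1 list. Of the 314 replicate 2 peaks 302 were (96.2%, against 96.8% over the whole list). The 12 that were not had scores between 53.0 and 477 and no replicate 1 partner. A replicate 1 peak overlapped 2.76 series peaks on average and a replicate 2 peak, where it overlapped any, 3.17. The maxima were 11 and 14.

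The 10 highest-scoring members were all overlapped by both replicates, and 8 of them were 5 kb or wider. The first was also the narrowest. At 9546361 to 9547188 it was 828 bp wide, ranked 228 in width among the members, and scored 79.4. Of the 1236 members under 1 kb, the next strongest, a 451 bp peak at 11039473 to 11039923, scored 30.5. The replicates disagreed on the strength of the 828 bp peak. Replicate 2 had a peak of 4985 bp over it at the score of 3100, and replicate 1 one of 1313 bp at 179, rank 100 of 227.

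The second strongest member, 16345 bp at 11526559 to 11542903 with a score of 76.5, was strong in every list. It lay under the top replicate 1 peak of the centre, 16459 bp wide with a score of 2536, at 11526419 to 11542877, nearly the same limits. The replicate 2 peak over it was 22176 bp wide and scored 3100. Next was 12034 bp at 7842249 to 7854282 (58.5), inside the sparse left part of the centre, with 1982 in replicate 1 and 3100 in replicate 2.

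The widest member, 24142 bp at 10707380 to 10731521, had rank 4 by series score (57.3) but lower ranks in both replicates, 170 of 227 and 163 of 314. Its replicate 1 peak was the widest of that list in the centre, 29178 bp, and scored 75.2, above only 25.1% of the replicate 1 peaks. Its replicate 2 peak, 31624 bp and also the widest, scored 364, above 48.1%. A pair of neighbours at 9069608 to 9078615 and 9079746 to 9092745, scoring 48.6 and 55.2, showed the same pattern. One replicate 1 peak of 25303 bp (score 173) and one replicate 2 peak of 27364 bp (score 974) spanned them both. Those peaks had rank 103 of 227 and 110 of 314 in their lists.

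The other members among the 10 strongest were at 12631590 to 12642758 (51.9), 12301648 to 12308652 (49.6), 12809104 to 12815099 (47.0) and 11825055 to 11829874 (46.4). The last was 4820 bp wide and lay under the second strongest replicate 1 peak, which scored 2519. The third strongest replicate 1 peak, 10140 bp at 11813133 to 11823272 with 2325, lay just to its left, and both were at 3100 in replicate 2. The fifth, 9359 bp at 13783095 to 13792453 with a score of 1862, covered 6 series peaks of which none scored above 20.1.

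The replicate 2 peak with the highest score in the centre was not among the 10 strongest sites of the series list. It was 4154 bp wide at 13530444 to 13534597, scored 3188, the one score there above 3100, and overlapped 3 series peaks that scored at most 21.6. Its replicate 1 partner was 1463 bp wide and scored 214. As the scale is not stated and 29 peaks share 3100, a score of 3188 need not mean stronger binding than theirs. Of the 29 tied at 3100, the first 4 by position were at 7841498 to 7856290, over the third strongest member, and at 8600761 to 8606647, 8936648 to 8940991 and 9095141 to 9101492. Replicate 1 peaks over the last 3 scored 501, 602 and 1550.

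Some wide replicate peaks spanned several members. The fourth and the fifth widest replicate 1 peaks, 15361 bp at 13077512 to 13092872 (score 667) and 14599 bp at 12808709 to 12823307 (604), overlapped 5 series peaks each. Replicate 2 had peaks of 17902 and 17584 bp over them, with scores of 3100 and 2679.

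**Figure D5:**
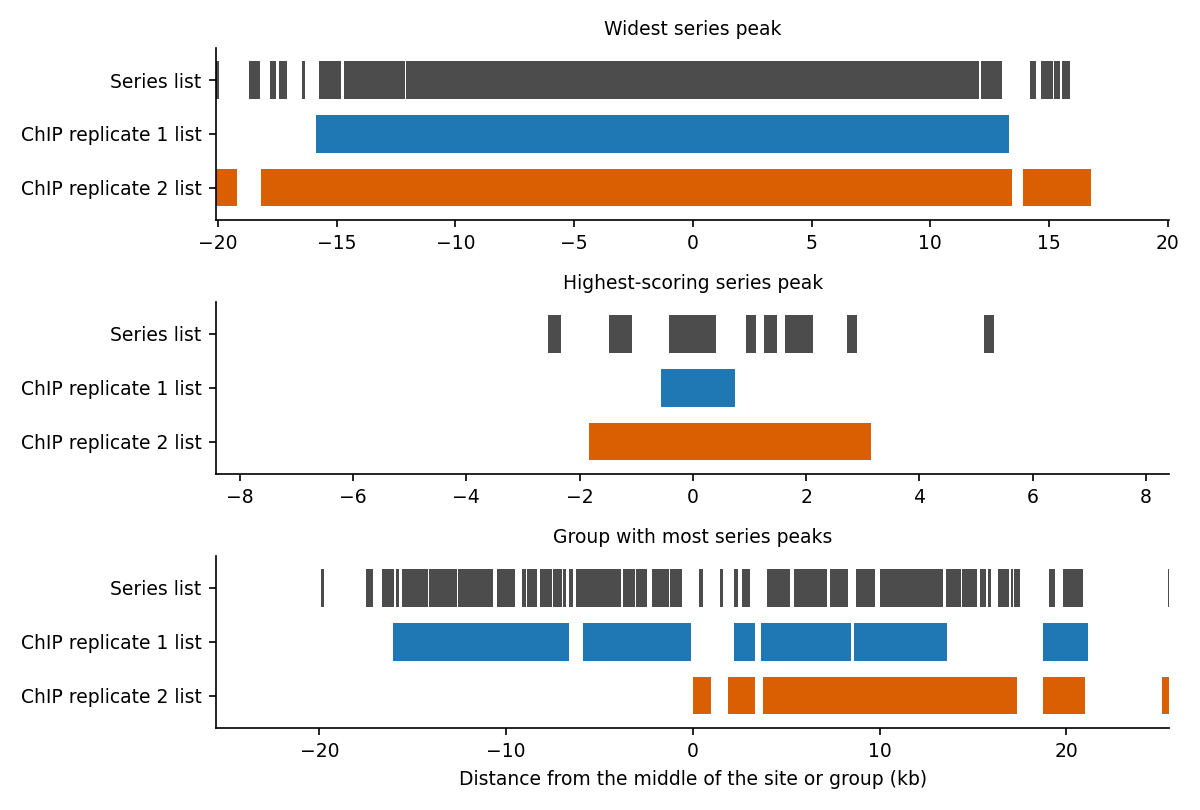
Peaks of the 3 lists, drawn to scale, around the widest member, the highest-scoring member and the group of 34 members, against distance from its middle in kb. Each bar is 1 peak. A single replicate peak spans the 24142 bp member in each replicate list, while replicate 2 has no peak over most of the left part of the group.

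Among the 10 widest members 7 were in both replicates and 6 were also among the 10 strongest. Those not in both were 11489 bp at 10471114 to 10482602, 7148 bp at 13658392 to 13665539 and 10478 bp at 13376898 to 13387375. The first lay in replicate 2 only, under a peak of 26078 bp that scored 493, and the nearest replicate 1 peak was 47559 bp from that peak. The second lay under a replicate 2 peak of 19478 bp at a score of 3096, the strongest in the centre without a partner, and the nearest replicate 1 peak was 69799 bp from it. The third lay in replicate 1 only, where its strongest overlapping peak scored 1384, also the highest without a partner in that list. The nearest replicate 2 peak was 3496 bp from that replicate 1 peak.

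Of all 21 members of 5 kb or more, 15 were in both replicates, 4 in replicate 2 alone, 1 in replicate 1 alone and 1 in neither. The last, named after its values were seen, was 6429 bp at 10940503 to 10946931 with a score of 21.7. The nearest peak was 15549 bp away in replicate 1 and 15321 bp away in replicate 2. The 5 widest replicate 1 peaks were covered to between 97.6% and 99.7% by series peaks and entirely by replicate 2 peaks.

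Unmatched strong peaks were not always far from a partner. In replicate 1 the second strongest of them, 5572 bp at 10035153 to 10040724 with a score of 1080, lay inside the group of 28 at 10026469 and was 3524 bp from replicate 2. In replicate 2 the next after the peak of 19478 bp were 4343 bp at 7436645 to 7440987 (2927) and 4379 bp at 12922240 to 12926618 (2840), at 3224 and 1456 bp from replicate 1. All 6 of the strongest unmatched peaks, 3 in each list, were overlapped by 2 or more series peaks. This was common, as 74.9% of all replicate 1 peaks and 64.0% of all replicate 2 peaks of the centre were. Over the whole lists the shares were 70.7% and 60.8%.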

How the data were processed

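ChIP-seq of COH-1 was described from 3 deposited peak lists. The submitters' processing notes name the aligner BWA and the build ce10, and the file headers WormBase WS220. Per the file headers and source columns, the authors called peaks with MACS (replicate lists) and MACS v2 (series list). No source used here gives caller versions, thresholds, pooling of replicates or the use made of the inputs. The deposited score of each peak is the authors' and its scale is not stated.

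From these, positions, widths, distances (bases between neighbouring peaks), overlaps of at least 1 bp and covered bases were computed with SciPy 1.17.1, pandas 2.3.3 and NumPy 2.4.6 under Python 3.11.15, and the functions were tested on simulated data. Chromosome lengths are the largest peak end in any list, and other centres are the middle of 3 equal parts. The V centre was compared with the 4 other centres by an exact two-sided permutation test over 5 chromosomes (difference from the mean of the others). Shares have exact Clopper-Pearson 95% intervals. Depth is unknown.

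Named regions are the 10 strongest and 10 widest members, the 5 strongest and widest peaks and 3 strongest unmatched peaks of each replicate list, the 5 longest distances and largest groups, and the 3 densest and sparsest windows. Members, lists and tests were chosen with earlier results of these data known. The gene table at hand is of another genome build, so no gene names or sequences were assigned to the peaks.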

Additional observations from a re-analysis of the deposited data

How the results depend on the processing

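The lower peak density of the V centre kept its direction in all 6 alternatives, with a log2 ratio to the mean of the other centres from -0.21 (upper 50% of series peaks by score) to -0.07 (peaks within 1 kb joined), against -0.13, and none could pass the 0.05 threshold. The share of members in both replicates, 34.8%, was 2.12% where 50% of both peaks had to overlap, a demand that a narrow peak within a wide one fails, 51.4% in the upper 50% by score and 30.8% after joining. With only 1 replicate list required it ran from 43.5% (without replicate 2) to 67.3% (without replicate 1). Median width, 323 bp, was 588 bp in the upper 50% by score and ran from 1904 to 2183 bp in the replicate lists. Median spacing, 396 bp, was 3185 bp after joining and ran from 2825 to 3913 bp in the replicate lists. The densest window, 302 peaks per Mb, held 60 to 66 per Mb in the replicate lists at the same place. In 250 kb windows the densest was its right part, 13250001 to 13500000, but in 1 Mb windows it was 10000001 to 11000000, at 280 per Mb. No paired analysis was possible because no values of the input samples, which share replicate numbers with the ChIP samples, were used here. Unknown depth limits all counts of peaks.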
